A study of Saccharomyces cerevisiae with 8 samples.

Results

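Tandem intergenic regions are the stretches between neighbouring protein-coding genes that are read in the same direction, so that each has the end of an upstream gene on one side and the start of a downstream gene on the other. They were taken from the R64 annotation of the budding yeast genome as intervals of at least 150 bp, leaving out those that overlapped a replication origin (ARS), tRNA, snoRNA or long terminal repeat and those within 10 kb of a centromere or 20 kb of a chromosome end. Of 5301 intergenic intervals of that length, 2724 were tandem, and 2266 passed the filters, 1133 with genes on each strand. Their median length was 381 bp (quartiles 280 and 534 bp), and together they measured 1085954 bp. Transcript ends are not annotated there, so "start" and "end" mean the first and last base of the coding sequence throughout.

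The study mapped Cse4, the yeast CENP-A histone that replaces H3 in the centromeric nucleosome, by anti-Flag ChIP of chromatin cut with micrococcal nuclease (MNase), beside the input chromatin of the same cells. Ahead of the nuclease step, cells of every strain were fixed for 15 min in 1% formaldehyde, so the chromatin was crosslinked rather than native. All 4 strains lacked the endogenous CSE4 gene and carried 3Flag-CSE4 under the CSE4 promoter at the URA3 locus. The 3Flag-CSE4 strain had no further change to CSE4 or PSH1, psh1 3Flag-CSE4 lacked Psh1, the ubiquitin ligase that targets Cse4 for proteolysis, pGAL-3Flag-CSE4 carried a further copy under the GAL promoter at LEU2, and psh1 pGAL-3Flag-CSE4 combined both changes. All cultures were asynchronous and received 2% galactose for 2 h, and there was 1 input and 1 ChIP library per strain, so no value has a replicate and no test between strains was made.

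In yeast, the start of a gene is usually preceded by a nucleosome-depleted stretch, flanked by a nucleosome upstream and by another at the start itself. The region past a gene's end is also often poor in nucleosomes, but it carries the sites where transcription stops rather than where it begins. In a divergent or convergent intergenic region both sides are of the same kind, whereas a tandem region holds one of each, so that the position of a peak within it can be read against both in the same stretch of DNA.

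The 9 sites that follow are the only tandem sites with a ChIP peak when Cse4 was expressed from its own promoter, all of them in the strain without Psh1, and they are shown because the ChIP signal passed the peak height there without overexpression. Of them, 8 are on chromosome XI, whose input stood apart in this strain. Each runs 5′ to 3′ in the direction of the flanking genes, named upstream gene first, with the bases under the psh1 3Flag-CSE4 peak in capitals and 10 flanking bases in lower case (RefSeq R64, the sacCer3 sequence).
RPL8A to SBP1, chrVIII:34390-34460, minus strand: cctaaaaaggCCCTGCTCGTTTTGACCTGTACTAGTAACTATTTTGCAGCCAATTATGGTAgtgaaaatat
APE1 to GFA1, chrXI:245900-245960, minus strand: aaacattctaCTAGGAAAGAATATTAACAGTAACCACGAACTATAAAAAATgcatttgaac
VMA5 to SMY1, chrXI:286300-286370, plus strand: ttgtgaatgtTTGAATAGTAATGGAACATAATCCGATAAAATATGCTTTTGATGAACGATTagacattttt
DHR2 to PSG1, chrXI:291230-291310, plus strand: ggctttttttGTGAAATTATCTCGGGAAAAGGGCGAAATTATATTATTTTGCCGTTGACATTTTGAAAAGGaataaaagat
OAR1 to TMA19, chrXI:335110-335200, minus strand: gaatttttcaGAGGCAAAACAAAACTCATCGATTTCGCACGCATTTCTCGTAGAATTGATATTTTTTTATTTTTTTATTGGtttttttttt
CSE4 to LPX2, chrXI:345890-345990, minus strand: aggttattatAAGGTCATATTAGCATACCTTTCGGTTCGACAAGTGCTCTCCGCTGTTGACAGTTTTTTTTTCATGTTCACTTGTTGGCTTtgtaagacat
ELM1 to CSE4, chrXI:346980-347100, minus strand: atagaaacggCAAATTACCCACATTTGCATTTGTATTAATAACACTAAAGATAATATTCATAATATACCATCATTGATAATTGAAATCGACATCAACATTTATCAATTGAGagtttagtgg
PHD1 to SPC42, chrXI:358060-358130, plus strand: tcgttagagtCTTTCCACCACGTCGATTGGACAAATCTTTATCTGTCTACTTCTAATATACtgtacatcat
SIS2 to DRE2, chrXI:576260-576320, minus strand: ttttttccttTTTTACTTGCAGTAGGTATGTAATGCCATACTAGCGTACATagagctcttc
The peak sequences were 41 to 101 bp wide and held 58.8 to 75.2% A+T, with a median of 65.6%, beside medians of 65.2% for the start side and 67.0% for the end side of all tandem regions.

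A further 3 sequences show peaks of the pGAL-3Flag-CSE4 strain. The stretches before YNL050C, of unknown function, and GAL4, the activator of the galactose genes, run from base 101 past the upstream gene's end to the downstream start, and the stretch before LEU1, a leucine biosynthesis enzyme, is its widest peak with 10 flanking bases. In capitals are the bases under the pGAL-3Flag-CSE4 ChIP peak. The first is among the widest peaks on the start side, the third among the widest on the end side, and GAL4 was chosen after its values were seen, as a narrow peak of the galactose gene group.
SFB2 to YNL050C, chrXIV:534983-535180, minus strand: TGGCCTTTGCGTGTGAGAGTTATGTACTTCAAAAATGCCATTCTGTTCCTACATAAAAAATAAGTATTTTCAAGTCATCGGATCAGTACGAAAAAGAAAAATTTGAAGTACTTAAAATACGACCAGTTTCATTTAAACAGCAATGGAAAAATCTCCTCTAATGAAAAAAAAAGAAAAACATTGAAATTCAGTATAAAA
YPL247C to GAL4, chrXVI:82357-82524, minus strand: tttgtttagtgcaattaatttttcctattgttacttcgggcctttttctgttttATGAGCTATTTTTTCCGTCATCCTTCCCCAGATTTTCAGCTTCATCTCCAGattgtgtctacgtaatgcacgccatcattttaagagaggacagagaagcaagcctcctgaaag
PMA1 to LEU1, chrVII:479150-479420, minus strand: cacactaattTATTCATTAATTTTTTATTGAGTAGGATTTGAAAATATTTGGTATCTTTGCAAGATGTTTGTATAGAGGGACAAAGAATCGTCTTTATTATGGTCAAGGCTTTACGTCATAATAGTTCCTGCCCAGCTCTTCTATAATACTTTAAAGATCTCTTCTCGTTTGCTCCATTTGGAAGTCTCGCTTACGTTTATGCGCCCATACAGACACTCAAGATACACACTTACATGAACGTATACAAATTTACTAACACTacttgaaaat
The YNL050C peak was 311 bp wide and continued past the start into the gene, the GAL4 peak was 51 bp wide with its centre 89 bp before the start, and the LEU1 peak was 251 bp wide with its centre 633 bp before the start and 625 bp past the end of PMA1, the plasma membrane proton pump.

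The number of tandem regions with a ChIP peak differed between the strains. In 3Flag-CSE4, 0 of 2266 regions contained the centre of a ChIP peak. The share over all intergenic regions that passed the same filters (4352) was 0.0%. The paper places the 17 peaks of this list at or beside the centromeres. Regions within 10 kb of a centromere were left out, so this 0 was fixed by the filter and does not measure an absence. In psh1 3Flag-CSE4, 9 regions contained a ChIP centre (0.397%, Wilson 95% interval 0.209 to 0.753%), against 0.207% of all intergenic regions. In pGAL-3Flag-CSE4, 1225 regions did (54.1%, 52.0 to 56.1%), against 45.4%. In psh1 pGAL-3Flag-CSE4, 2111 did (93.2%, 92.0 to 94.1%), against 86.6%. These intervals, like all that follow, cover counting error only, and they do not include the variation between cultures. Input peaks, which mark nucleosomes, had a centre in 86.1, 85.7, 91.1 and 81.3% of the tandem regions of the strains in this order. In all intergenic regions these shares were 81.0, 81.9, 88.3 and 72.7%. The span from 9 to 2111 regions in the ChIP lists other than that of 3Flag-CSE4 was thus not matched by the inputs. The paper reports more mapped ChIP reads for both overexpressing strains than for the other strains. The part of this difference in the counts was not tested.

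Tandem regions were occupied more often than regions of the other orientations in pGAL-3Flag-CSE4, where 40.8% of 1237 divergent regions (38.1 to 43.6%) and 28.9% of 849 convergent regions (25.9 to 32.0%) held a ChIP centre. In psh1 pGAL-3Flag-CSE4 the share of divergent regions was 94.4% (93.0 to 95.6%), which overlaps the tandem interval, and that of convergent regions was 57.5% (54.1 to 60.8%). The classes differ in length, with medians of 381, 481 and 269 bp for tandem, divergent and convergent regions. Per kb of sequence, pGAL-3Flag-CSE4 had 1.39 ChIP centres in tandem, 0.907 in divergent and 0.981 in convergent regions, and psh1 pGAL-3Flag-CSE4 had 3.02, 3.51 and 2.27. In psh1 3Flag-CSE4, 0 of the divergent and 0 of the convergent regions held a ChIP centre, which allows up to 0.310% and 0.450%.

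Most of the 9 peaks of psh1 3Flag-CSE4 lay nearer the upstream gene's end. Of them, 2 had their centre nearer the downstream start and 7 nearer the upstream end (22.2% on the start side, 6.32 to 54.7%), beside 50.6% of the input centres of that strain (1954 to 1907), a difference of −28.4 percentage points whose Newcombe interval, −44.4 to 4.17, includes 0. The centres lay 183 to 557 bp before the start and 127 to 830 bp past the end. The 2 start-side peaks preceded PSG1, which stabilizes the Pma1 proton pump, with its centre 183 bp from the start, and SBP1, an RNA-binding protein, with its centre 348 bp from the start in the longest of the 9 regions (1177 bp). The 7 end-side peaks preceded SMY1, a kinesin-like protein (268 bp from the start), TMA19, a ribosome-associated protein (240 bp), CSE4 itself (276 bp), SPC42, a core part of the spindle pole body (380 bp), DRE2, an iron-sulfur cluster assembly factor (310 bp), GFA1, which makes the precursor of chitin (557 bp), and LPX2, the neighbour downstream of CSE4 (320 bp).

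Of the 9 regions, 8 were on chromosome XI, which holds 130 of the tandem regions, and without that chromosome 1 peak was left. The input list of the same strain also set this chromosome apart, with 67.2% of the tandem bases of chromosome XI under an input peak against 23.5 to 38.3% on the 15 others. The input of psh1 pGAL-3Flag-CSE4 did the same (69.6% against 16.8 to 31.8%), and so did its ChIP list (68.2% against 27.0 to 57.9%), whereas the inputs of 3Flag-CSE4 (35.9% against 33.5 to 40.5%) and pGAL-3Flag-CSE4 (45.1% against 38.0 to 49.6%) did not. The lists hold no read depth, the copy number of chromosome XI in these strains was not measured here, and the part of this difference in the 8 peaks was not tested. The native CSE4 locus, deleted in all strains, is also on this chromosome and borders the regions before CSE4 and LPX2, and the constructs carry DNA from both of these stretches. Reads from the CSE4 promoter of the construct at URA3 cannot be told apart from those of the stretch between ELM1 and CSE4. The constructs at URA3 and, in the strains with pGAL, at LEU2 also include DNA just downstream of CSE4, so the same holds for the stretch between CSE4 and LPX2. All 9 regions held a ChIP centre in both pGAL-3Flag-CSE4 and psh1 pGAL-3Flag-CSE4. The peaks of these regions measured 41 to 341 bp in the former and 51 to 571 bp in the latter, and each psh1 3Flag-CSE4 peak lay inside a peak of both. Before PSG1 the peak went from 61 bp to 341 bp to 571 bp, the last covering the whole region of 400 bp and parts of both genes.

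**Figure D1:**
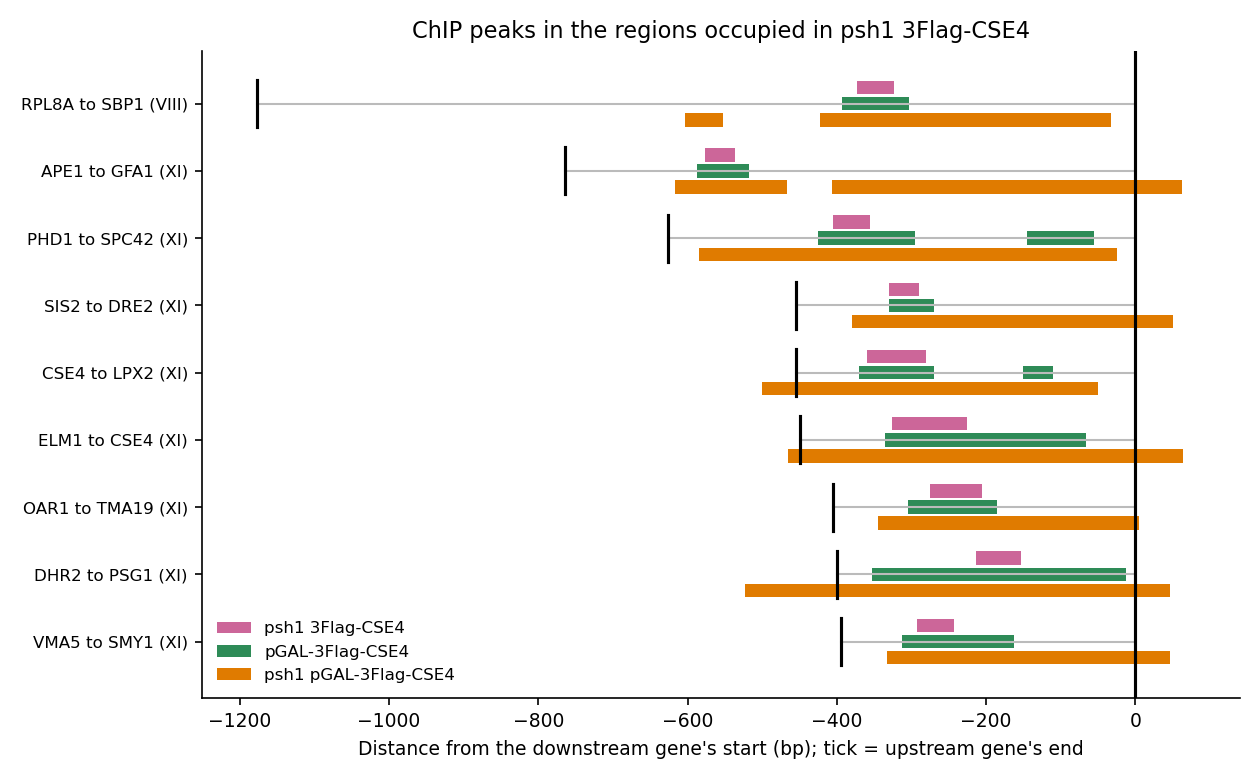
ChIP peaks in the 9 tandem regions with a peak in psh1 3Flag-CSE4, drawn to scale by distance from the downstream gene's start at 0 (bp), with the upstream gene's end as a tick and bars coloured by strain. Peaks of psh1 3Flag-CSE4 are 41 to 101 bp wide and lie within peaks of the overexpressing strains, which in psh1 pGAL-3Flag-CSE4 reach 571 bp.

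When Cse4 was overexpressed, ChIP peaks lay nearer the start of the downstream gene more often than nearer the end of the upstream gene. In pGAL-3Flag-CSE4, 919 centres were on the start side and 589 on the end side (60.9%, 58.5 to 63.4%), with 3 at equal distance left out. Input centres of the same strain were divided evenly, 2404 to 2385 (50.2%, 48.8 to 51.6%), so that the ChIP share was 10.7 percentage points higher (Newcombe interval 7.88 to 13.6). In psh1 pGAL-3Flag-CSE4, 2038 ChIP centres were on the start side and 1240 on the end side (62.2%, 60.5 to 63.8%), against 1728 and 1597 in its input (52.0%, 50.3 to 53.7%), a difference of 10.2 points (7.82 to 12.6). The ChIP shares of these strains differed by 1.23 points (−1.72 to 4.21), an interval that includes 0, although the number of peaks was 1511 in one and 3284 in the other. In the inputs of 3Flag-CSE4 and psh1 3Flag-CSE4 the start-side share was 51.7% and 50.6%.

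**Figure D2:**
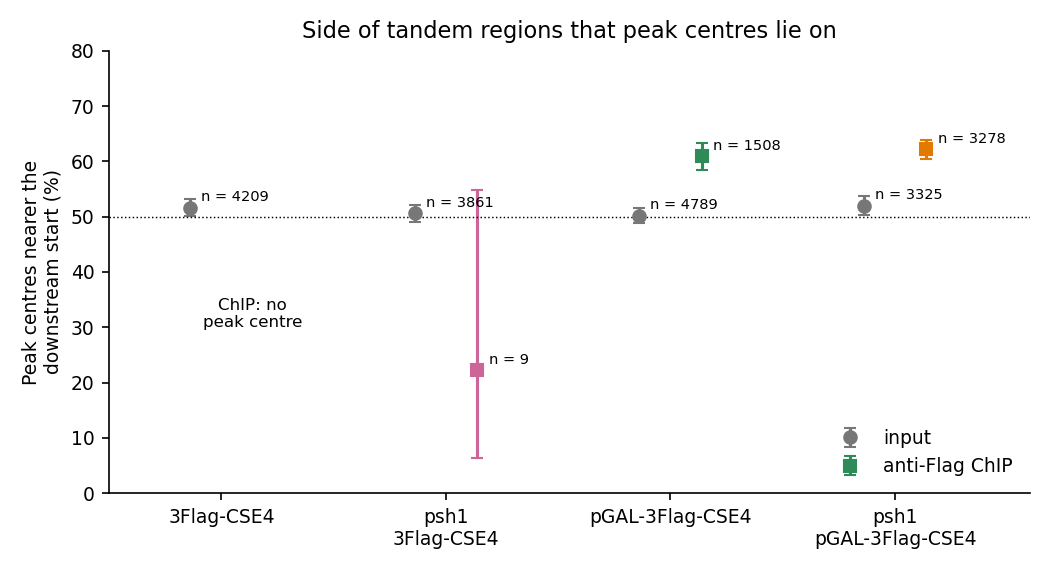
Share of peak centres in tandem regions that lie nearer the downstream start (%), for the input (circles) and ChIP (squares) list of each strain, with 95% Wilson intervals as bars, the number of centres beside each and a dotted line at equal sides. Inputs lie between 50.2 and 52.0%, the ChIP lists of both overexpressing strains at 60.9 and 62.2%, and the psh1 3Flag-CSE4 ChIP share rests on 9 peaks.

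The start side was ahead on both strands and on nearly all chromosomes. In pGAL-3Flag-CSE4 the start-side share was 60.3% for genes on the plus strand and 61.5% for those on the minus strand, and in psh1 pGAL-3Flag-CSE4 it was 61.9% and 62.5%. By chromosome it ran from 47.1% (V) to 69.9% (X) in pGAL-3Flag-CSE4 and was above the input of the strain on 15 of 16 chromosomes. In psh1 pGAL-3Flag-CSE4 it ran from 52.9% (IX) to 68.7% (III) and was above the input on 16 of 16. Without chromosome XI, whose input stood apart, the psh1 pGAL-3Flag-CSE4 share was 62.1% for ChIP and 52.0% for input, and 93.1% of tandem regions held a ChIP centre.

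Counted by region, 653 tandem regions of pGAL-3Flag-CSE4 had ChIP centres on the start side only, 357 on the end side only and 212 on both, while 1041 had none. In psh1 pGAL-3Flag-CSE4 the numbers were 1079, 313, 714 and 155. The number of regions with a peak on the end side only was thus slightly lower in the strain with more peaks, while those with a peak on both sides were more numerous. Dividing each region into 3 equal parts, 18.2% of the pGAL-3Flag-CSE4 ChIP centres were in the part next to the upstream end, 39.0% in the middle and 42.8% next to the downstream start. For psh1 pGAL-3Flag-CSE4 these shares were 21.3, 38.1 and 40.7%, and for the inputs of these strains 32.6, 32.1 and 35.3% and 31.0, 30.7 and 38.2%. The share beside the upstream end was therefore lower in ChIP than in input by more than counting error in both strains, and the share in the middle was higher.

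The position of the peaks was read in more detail from the share of regions under a peak at each distance from the gene edges. Only regions at least as long as a distance were counted there, so those counted become fewer and longer further in. The part of this in the rises and falls of the profiles was not tested. In pGAL-3Flag-CSE4, 22.4% of tandem regions were under a ChIP peak at the downstream start and 2.47% at the upstream end, while the input covered 65.3% and 47.1%. The ChIP profile before the start had a maximum of 23.1% at 10 bp, a minimum of 10.5% at 90 bp and another maximum of 18.7% at 240 bp. These distances are near those of the input of this strain, with maxima at 10 and 270 bp and a minimum at 90 bp, the usual places of the nucleosome at the start, the nucleosome upstream of it and the depleted stretch between them. Past the upstream end the ChIP profile rose from its minimum at the end itself to 22.5% of the 1998 regions counted at 230 bp.

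In psh1 pGAL-3Flag-CSE4 the lowest ChIP share within 250 bp before the start was at the start itself and no longer at 90 bp. Start-side peaks of this strain had a median width of 181 bp, so a peak can span the depleted stretch, and the lists hold no height within a peak. At the starts of divergent regions the lowest share was still at 90 bp, 47.6% against 60.6% at the start. The tandem ChIP profile rose from 59.7% at the start to 67.4% at 140 bp, while its input fell from 48.7% at the start to 20.3% at 90 bp and rose to 37.2% at 250 bp. At the upstream end it was 24.1%, rising to 71.3% of the 1817 regions counted at 260 bp past the end. At 100 bp within the genes ChIP coverage was lower than at their edges. It was 13.5% past the start and 9.18% before the end, and 0.618% and 0.883% in pGAL-3Flag-CSE4. The inputs were also lower there than at the edges, with 12.9 and 12.6% in psh1 pGAL-3Flag-CSE4 and 22.9 and 32.7% in pGAL-3Flag-CSE4. The ChIP lists were called on a signal scaled to the centromeres and the input lists with settings not given in the sources used here, so the heights of ChIP and input profiles are not on a common scale and only their shapes can be set side by side.

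**Figure D3:**
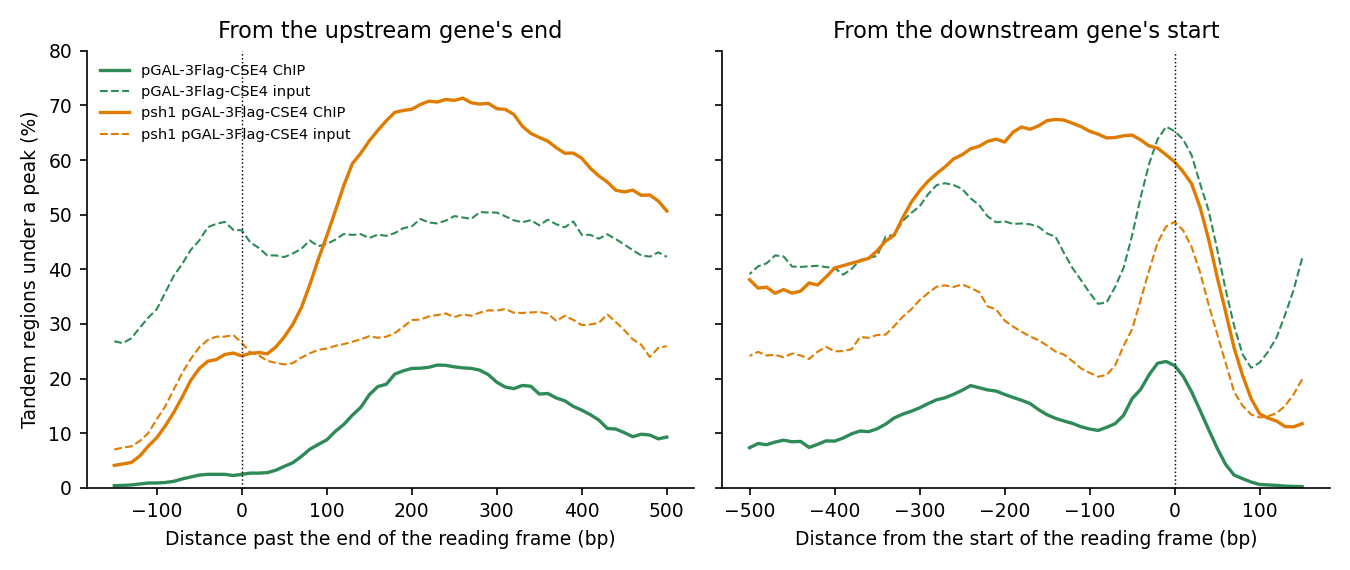
Share of the tandem regions under a peak (%) by distance (bp) from the upstream gene's end (left) and the downstream gene's start (right), with ChIP as solid and input as dashed lines, the upstream gene left of 0 in the left panel and the downstream gene right of 0 in the right. Each distance counts only the regions at least that long. ChIP of pGAL-3Flag-CSE4 is 2.47% at the upstream end and 22.4% at the downstream start, and ChIP of psh1 pGAL-3Flag-CSE4 is 24.1% and 59.7%.

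Windows of fixed width gave the same order. In the 1578 regions of at least 300 bp, the 150 bp before the start held a ChIP centre in 23.4% of regions in pGAL-3Flag-CSE4 (21.4 to 25.6%), and the 150 bp past the end in 11.8% (10.3 to 13.5%). In psh1 pGAL-3Flag-CSE4 these were 51.3% (48.9 to 53.8%) and 25.0% (23.0 to 27.2%). The inputs had 69.3 and 64.8% in the former strain and 51.0 and 42.9% in the latter, so the ratio between windows was smaller in the inputs. In divergent regions, which have a start on both sides, 13.1% of start windows held a ChIP centre in pGAL-3Flag-CSE4, fewer than in tandem regions, and 55.1% did in psh1 pGAL-3Flag-CSE4 (52.7 to 57.4%). In convergent regions the end windows were occupied in 13.7% (11.2 to 16.5%) and 30.4% (27.0 to 34.0%). In pGAL-3Flag-CSE4 the end windows of tandem and convergent regions thus differed by less than their counting error.

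The excess on the start side varied with the length of the region. In the 688 regions shorter than 300 bp, 81.0% of pGAL-3Flag-CSE4 ChIP centres were on the start side (75.7 to 85.3%) with a median distance of 33 bp from the start, and in psh1 pGAL-3Flag-CSE4 71.3% were (67.7 to 74.7%) with a median of 75 bp. From 300 bp to below 500 bp the shares were 58.4 and 66.4%, and from there to below 800 bp 56.4 and 59.1%. In the 232 regions of 800 bp or more they were 53.8% (47.4 to 59.9%) and 51.1% (47.5 to 54.6%), within counting error of equal sides and, in the latter strain, of its input (54.6%, 50.9 to 58.2%). The input shares in the 4 length classes ran from 47.2 to 52.1% and from 49.1 to 55.0%. Just above the length limit, 16 regions of 150 to 159 bp included 4 with a ChIP centre in pGAL-3Flag-CSE4 and 8 in psh1 pGAL-3Flag-CSE4, and 14 regions of 140 to 149 bp, just below it, included 2 and 8.

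**Figure D4:**
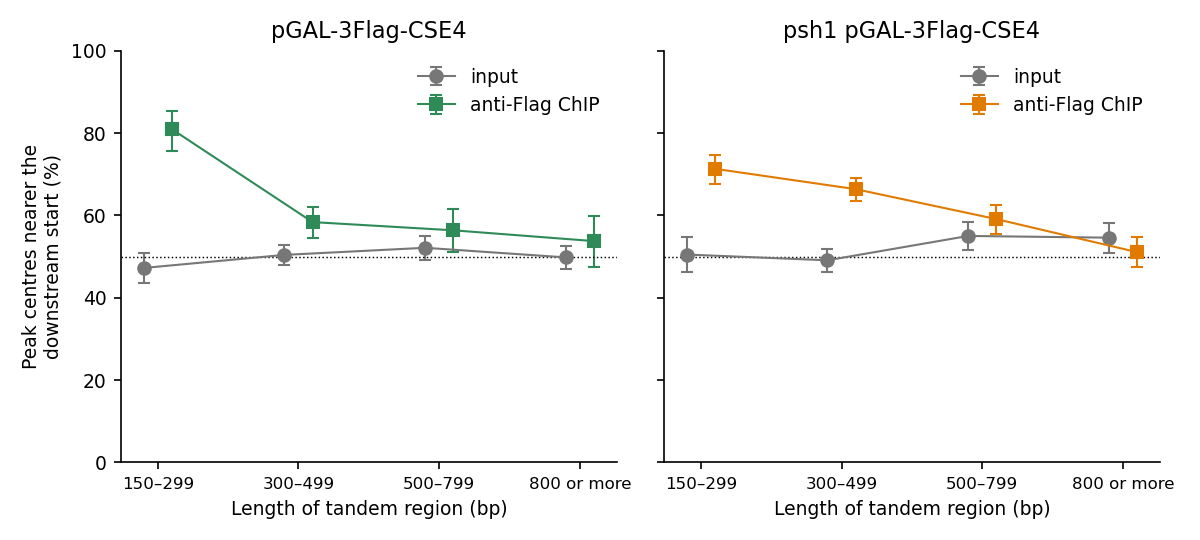
Share of peak centres nearer the downstream start (%) by length of the tandem region (bp) in both overexpressing strains, with squares for ChIP, circles for input, 95% Wilson intervals as bars and a dotted line at equal sides. The ChIP share falls from 81.0 to 53.8% in pGAL-3Flag-CSE4 and from 71.3 to 51.1% in psh1 pGAL-3Flag-CSE4, while the inputs stay between 47.2 and 55.0%.

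To set the ChIP peaks against the nucleosomes mapped on each side, the input peaks themselves were scored for overlap with a ChIP peak by at least 1 bp. In pGAL-3Flag-CSE4, 805 of 2404 start-side input peaks were overlapped (33.5%, 31.6 to 35.4%) and 622 of 2385 on the end side (26.1%, 24.4 to 27.9%), a ratio of 1.28 (95% log interval 1.18 to 1.40), against 10% of all nuclear input peaks. In psh1 pGAL-3Flag-CSE4, 1579 of 1728 were overlapped on the start side (91.4%, 90.0 to 92.6%) and 1329 of 1597 on the end side (83.2%, 81.3 to 85.0%), a ratio of 1.10 (1.07 to 1.13), against 61.7% of all. The ratio of pGAL-3Flag-CSE4 rested on its narrow peaks: with ChIP peaks at least 100 bp wide it was 0.874, and the start-side share of centres 53.0%, whereas in psh1 pGAL-3Flag-CSE4 the same limit gave 1.29 and 69.6%.

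By distance, the share was higher counted from the start next to the genes, and further in it was mostly higher counted from the end. Every input peak was counted from both edges, so the series share peaks. In a short region a peak far from the end lies near the start. The values further in therefore do not measure the end side alone. Within 50 bp of the start 38.9% of input peaks were overlapped in pGAL-3Flag-CSE4 (35.4 to 42.5%), and within 50 bp of the end 13.5% (10.8 to 16.9%). At 200 to 250 bp the shares were 36.6% (32.4 to 40.9%) counted from the start and 43.8% (39.4 to 48.4%) counted from the end, and at 300 to 400 bp they were 31.8% (28.0 to 35.8%) and 41.8% (38.0 to 45.7%). In psh1 pGAL-3Flag-CSE4, 93.5% were overlapped within 50 bp of the start and 76.6% within 50 bp of the end, and 90.4% and 91.0% at 200 to 250 bp. In the 807 regions of pGAL-3Flag-CSE4 with 2 input peaks, the peak nearer the start (median 68 bp away) was overlapped in 41.9% (38.5 to 45.3%) and the other in 29.4% (26.3 to 32.6%). In its 402 regions with 3 input peaks the overlap was 31.3% for the peak nearest the start, 36.3% for the middle and 23.9% for the peak nearest the end.

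**Figure D5:**
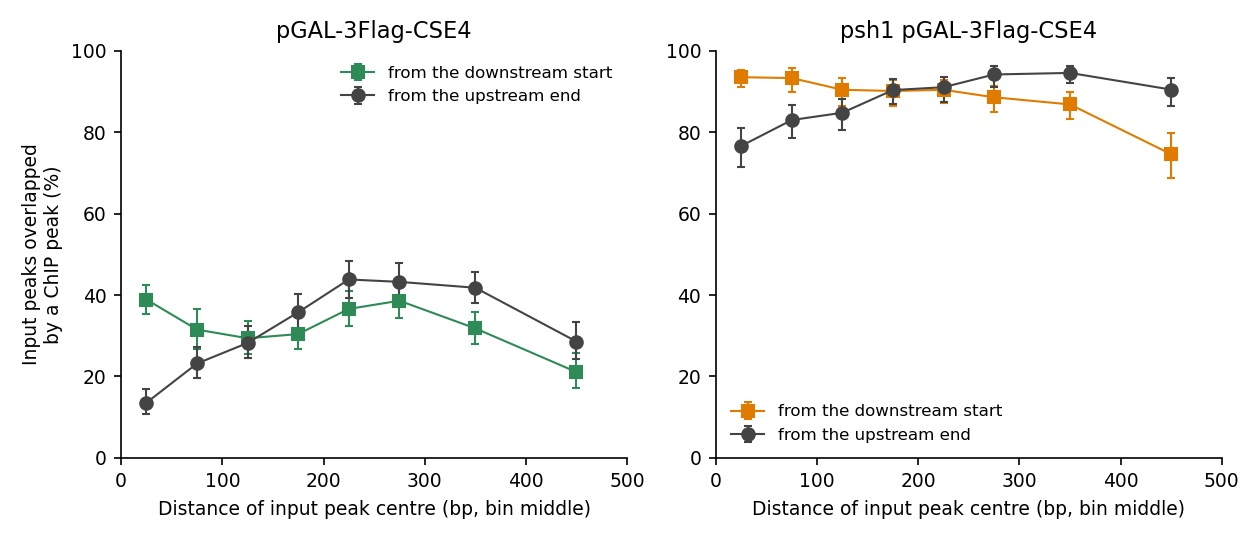
Share of input peaks in tandem regions that a ChIP peak of the same strain overlapped (%), by distance of the input peak's centre (bp) from the downstream start (squares) and from the upstream end (circles), with 95% Wilson intervals as bars. Every input peak was counted from both edges. In pGAL-3Flag-CSE4 the shares within 50 bp are 38.9% and 13.5%, and in psh1 pGAL-3Flag-CSE4 they are 93.5% and 76.6%.

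Nearly every tandem peak of pGAL-3Flag-CSE4 touched a peak of psh1 pGAL-3Flag-CSE4, whose ChIP peaks covered much more of the sequence. Of its 1511 peaks, 1509 (99.9%) were overlapped by a psh1 pGAL-3Flag-CSE4 peak, whereas 1417 of the 3284 peaks of that strain (43.1%) were overlapped in the other direction. An overlap of 1 bp was enough, and ChIP peaks covered 52.5% of all tandem bases in psh1 pGAL-3Flag-CSE4 and 12.5% in pGAL-3Flag-CSE4. No overlap expected by chance was computed. The overlapped peaks of psh1 pGAL-3Flag-CSE4 had a median width of 251 bp and were on the start side in 71.7% (69.3 to 74.0%), and the 1867 others had a median width of 101 bp and were on the start side in 54.9% (52.7 to 57.2%). By region, 1208 were occupied in both strains, 17 in pGAL-3Flag-CSE4 only, 903 in psh1 pGAL-3Flag-CSE4 only and 138 in neither. Around the 918 shared start-side peaks, the peak of psh1 pGAL-3Flag-CSE4 reached a median of 70 bp further toward the upstream end and 40 bp further toward the start. Around the 588 shared end-side peaks it reached a median of 170 bp further toward the start and 30 bp further toward the end. Of these, 445 gained more on the side of the start, 104 on the side of the end and 39 equally. With the 39 left out, the share that gained more toward the start was 81.1% (77.6 to 84.1%). The wider peaks thus extended into the middle of the region from both sides.

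A tandem region could hold a ChIP centre with no input centre in the same strain. Such a region can still lie under an input peak centred outside it. That between CSE4 and LPX2 had 93.6% of its bases under input peaks in pGAL-3Flag-CSE4 and 100% in psh1 pGAL-3Flag-CSE4, without an input centre. In pGAL-3Flag-CSE4, 201 regions had no input centre, and 47 of them held a ChIP centre (23.4%, 18.1 to 29.7%), against 1178 of the 2065 others. In psh1 pGAL-3Flag-CSE4, 322 of 423 did (76.1%, 71.8 to 79.9%), against 1789 of the 1843 others. Those regions were shorter, with median lengths of 219 and 268 bp against 396 and 408 bp. Regions without any ChIP centre also had lower median lengths, 320 bp in the strain with Psh1 and 235 bp in the strain without it.

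The regions covered most fully in pGAL-3Flag-CSE4, among those of at least 300 bp, lay before PSG1 (85.3% of bases under ChIP peaks), MRPL17, a mitochondrial ribosomal protein (78.1%), MSB1, which acts in cell polarity (75.9%), RBH1 (74.3%) and MDL1, a mitochondrial ABC transporter (68.4%). In psh1 pGAL-3Flag-CSE4 these were covered to 100, 81.1, 77.3, 83.6 and 90.4%. In that strain 25 of the 1578 regions were covered to 100%, among them those before PSG1 and CSE4, and the rule for naming regions took the first 5 by chromosome and position. These lay before LYS2 of lysine biosynthesis, FAD1, which makes FAD, SSY1, the amino acid sensor, RAD9, the DNA damage checkpoint adaptor, and GLO2, a glyoxalase. Their pGAL-3Flag-CSE4 coverage was 41.1, 25.4, 31.8, 43.7 and 0.0%, and over all 25 it ran from 0.0 to 85.3% with a median of 25.4%.

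The widest single peaks of pGAL-3Flag-CSE4 were wider on the start side than on the end side. On the start side they preceded PSG1 (341 bp), MSB1 (321 bp), MVB12, an ESCRT-I subunit (321 bp), and YNL050C (311 bp). On the end side they preceded ELO2, a fatty acid elongase (271 bp), YER053C-A (261 bp), LEU1 (251 bp) and AFR1, which acts in pheromone signalling (241 bp). Over all tandem peaks of the strain the order was the other way, with median widths of 81 bp on the start side and 91 bp on the end side, and in psh1 pGAL-3Flag-CSE4 they were 181 and 111 bp. Of the loci that the study used for ChIP-PCR, SLP1 and UTH1 are downstream of a tandem region. The study's primers were in the promoter for SLP1 but in the gene for UTH1, so the region before UTH1 is not the place it measured. Before SLP1 a ChIP peak of 241 bp was centred 109 bp from the start in pGAL-3Flag-CSE4 and a peak of 431 bp 24 bp from it in psh1 pGAL-3Flag-CSE4. Before UTH1 no ChIP centre was found in pGAL-3Flag-CSE4 and a peak of 91 bp, 152 bp from the start, in psh1 pGAL-3Flag-CSE4.

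Regions were also grouped by their downstream gene. Before cytosolic ribosomal protein genes, 6 of 55 regions held a ChIP centre in pGAL-3Flag-CSE4 (10.9%, 5.10 to 21.8%), against 54.1% of all tandem regions, and of their 7 centres 1 was on the start side. That centre was before RPL35B, which also had another on the end side, and the other regions with a peak were before RPL4B, RPL34B, RPL17A, RPL15B and RPS19A. These 55 regions held 109 input centres in that strain, 46 on the start side and 63 on the end side. Over all tandem regions there were 2.11 input centres per region, 50.2% of them on the start side. Region length was not matched, and the part of nucleosome number and place in the low ChIP share was not tested. In psh1 pGAL-3Flag-CSE4, 45 of the 55 were occupied (81.8%, 69.7 to 89.8%), against 93.2% of all, with 44 centres on the start side and 34 on the end side. Before the heat shock chaperone genes 0 of 8 regions were occupied in pGAL-3Flag-CSE4, which allows up to 32.4%, and 6 of 8 in psh1 pGAL-3Flag-CSE4, those before SSA3 and HSP78 remaining without. Before glycolytic genes 3 of 7 and 7 of 7 regions were occupied, and in pGAL-3Flag-CSE4 these were PFK1, a phosphofructokinase subunit, FBA1, the aldolase, and PYK2, a pyruvate kinase. Of the galactose genes, GAL7 and GAL4 had a centre in pGAL-3Flag-CSE4, on the end side and the start side, and these and GAL80 in psh1 pGAL-3Flag-CSE4. The transcription of these genes is not part of the lists.

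Sequence composition was nearly equal on the sides. The median A+T content of start-side and end-side ChIP peaks was 63.4 and 64.5% in pGAL-3Flag-CSE4 and 64 and 63.7% in psh1 pGAL-3Flag-CSE4, and 64.4 and 65.9% and 63.7 and 65.4% in their inputs. In the 200 bases before the start, both strands were searched for TTACCCG, the core of the site of the general regulatory factor Reb1, for TATAAA and for a run of AAAAAAA, in the 2146 tandem regions at least that long. TTACCCG was in 5.69% of them and in 5.67% of the same windows of all protein-coding genes. A start-side ChIP peak was present in pGAL-3Flag-CSE4 in 33 of the 122 regions with TTACCCG (27.0%, 20 to 35.5%) and in 805 of the 2024 without it (39.8%, 37.7 to 41.9%), and in psh1 pGAL-3Flag-CSE4 in 111 of 122 (91.0%, 84.6 to 94.9%) and 1627 of 2024 (80.4%, 78.6 to 82.1%). The order was thus opposite in these strains. TATAAA was in 40.0% of the tandem windows and 37.8% of all windows, and AAAAAAA in 45.7 and 42.1%. Start-side peaks were present in 39.3% of regions with TATAAA and 38.9% without it in pGAL-3Flag-CSE4, and in 80.9 and 81.1% in psh1 pGAL-3Flag-CSE4. For AAAAAAA the shares were 41 and 37.4%, and 81.1 and 80.9%. A run of A can overlap TATAAA in its last bases, and a match to these letters is not a measured binding site.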

How the data were processed

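Peak lists of 8 libraries were analysed, 1 input and 1 anti-Flag ChIP library for each of 4 strains, grouped by the genotype in the sample labels. The authors mapped paired reads to sacCer3 with BWA, kept proper pairs by mapping score with SAMtools, selected inserts of nucleosome size with R Bioconductor packages and called peaks with DANPOS2. ChIP signal was corrected for input by subtraction, normalized to centromeric coverage within each strain and blanked at the ribosomal DNA. Peaks then had to exceed the weakest 3Flag-CSE4 centromere, the same height in every strain. Settings for input peaks are not given in the sources used here. The deposited lists hold start and end positions and a score that is 0 in every line, so they give no peak height or read depth. The precision given is that of counts of peaks or regions. The paper reports read numbers per library, and no count was adjusted for them.

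Regions were taken from the R64 annotation, the sacCer3 sequence, and a peak was placed by its centre. Shares carry 95% Wilson intervals, their differences Newcombe intervals and ratios log intervals. No test between strains was made. Named regions were every region with a ChIP centre in 3Flag-CSE4 or psh1 3Flag-CSE4, the 5 most covered of 300 bp or more in each overexpressing strain (ties by chromosome and position, which chose 5 of 25 wholly covered regions in psh1 pGAL-3Flag-CSE4), the 4 widest pGAL-3Flag-CSE4 peaks of each side, those before SAP4, SLP1 or UTH1 (none was found before SAP4), and 4 gene groups by downstream gene. The members, lists and comparisons were chosen with earlier results of these data known. Alternatives changed the length, width, overlap, filters, chromosomes and nucleosome map. The counting of the start-side share was checked on simulated data (4 lists, largest error 0 percentage points). The simulated peaks were narrow, were never several in a region and had centres set within a known side. The error of 0 therefore checks the counting code and not the measure on real peaks. Python 3.11.15, numpy 2.4.6, pandas 2.3.3 and matplotlib 3.10.9 were used.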

Additional observations from a re-analysis of the deposited data

Results flagged for a closer look

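The difference in start-side share between ChIP and input had opposite signs in strains under the same comparison. It was −28.4 percentage points in psh1 3Flag-CSE4, where it rests on 9 ChIP peaks, and 10.7 points in pGAL-3Flag-CSE4 and 10.2 points in psh1 pGAL-3Flag-CSE4. With 1 library of each kind per strain, the difference between strains was not tested.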

How the results depend on the processing

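No paired analysis was possible because each group had 1 library. The start-side share of ChIP centres stayed above 50% under all 12 alternatives in both overexpressing strains, for which no intervals are given. In pGAL-3Flag-CSE4 (60.9%) it was 56.9% in regions of 300 bp or more, 63.9% in regions with 1 centre and 66.7% within 150 bp of a gene. With peaks at least 100 bp wide it was 53.0% of 519 centres, close to equal sides. In psh1 pGAL-3Flag-CSE4 (62.2%) it was 60.0% in regions of 300 bp or more, 77.5% in regions with 1 centre and 67.2% within 150 bp of a gene. With peaks at least 100 bp wide it was 69.6% there. It was 64.1% in regions of 200 to 1000 bp, 60.3% with the excluded features kept and 59.5% of bases under peaks. The input shares crossed 50% in pGAL-3Flag-CSE4 to 47.4% (peaks of 100 bp) and 45.6% (regions with 1 centre), and in psh1 pGAL-3Flag-CSE4 to 49.1% (regions with 1 centre). The share of regions with a ChIP centre in pGAL-3Flag-CSE4 (54.1%) was 62.5% in regions of 300 bp or more, 50.9% with peaks of 50 bp, 22.0% with peaks of 100 bp and 62.0% by overlap. In psh1 pGAL-3Flag-CSE4 (93.2%) it was 97.1% in regions of 300 bp or more, 94.5% from 200 to 1000 bp, 84.9% with peaks of 100 bp and 97.7% by overlap. The start-to-end ratio of overlapped input peaks in pGAL-3Flag-CSE4 (1.28) was 1.15 in regions of 300 bp or more and turned to 0.874 with peaks of 100 bp. In psh1 pGAL-3Flag-CSE4 (1.10) it was 1.29 with peaks of 100 bp, 1.15 on the 3Flag-CSE4 input map and 1.14 with 50% overlap. The 9 peaks of psh1 3Flag-CSE4 became 1 without chromosome XI. The causes were not tested. A stricter peak height could not be applied because the lists hold none.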
